A study of Mus musculus with 34 samples.

Results

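The genes of glutathione, NRF2 and redox enzyme metabolism were followed across 6 groups of cultured osteosarcoma cells. A named set of 43 mouse genes was looked up by symbol in the deposited expression table, which lists 16576 genes, and 40 of the 43 had a value and were tested. Gpx7, Gstp1 and Ftl1 were not analysed here. Members were found by symbol alone, though the set was put together with earlier results of these data known.

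The cells were MOSJ-Dkk-1, an osteochondral sarcoma line of mouse that carries a pLenti construct from which human Dkk-1, a secreted inhibitor of Wnt signalling, is made under the cytomegalovirus promoter. All 6 groups, the controls included, carry this construct. In log phase, cells grew for 6 days with regular changes of medium and received no morpholino (NT), 5 µM DkkMo or 5 µM scrMo, added 24 h after seeding. These doses are those of the labels and methods, and a figure legend of the study gives a higher dose of DkkMo for log phase. DkkMo is a vivo morpholino, an antisense oligonucleotide made to enter cells, directed against the Dkk-1 transcript, and scrMo is its scrambled control. Under nutritional stress, cells were kept confluent for 48 h and without a change of medium for 4 days with the same NT, DkkMo and scrMo treatments. Confluence and spent medium were applied together and cannot be told apart. Time in culture and length of morpholino exposure may also have differed from log phase, as the methods do not give them clearly for both conditions. Each group had 3 libraries. The labels do not say that these were separate cultures, although each library is called a culture in what follows, and 2 stressed NT libraries have titles with 1 and the same number, so p values measure the spread between these libraries, which may be technical.

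NRF2, the product of Nfe2l2, is a transcription factor that KEAP1 binds and marks for degradation in unstressed cells. When KEAP1 is modified by electrophiles or oxidants, NRF2 accumulates and binds antioxidant response elements in genes for glutathione synthesis, thioredoxin reduction, quinone reduction and heme breakdown. Glutathione, the thioredoxins and the peroxiredoxins draw their reducing power from NADPH, much of it from the pentose phosphate pathway, and tumour cells use these systems to tolerate oxidants and cytotoxic drugs.

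Libraries held 25.9 to 44.8 M reads on the genes of the table. The share of them on the mitochondrial genome was 2.30 to 2.68% in the log phase groups and 1.54 to 1.88% in the NT and DkkMo groups under nutritional stress, whereas the scrMo cultures under nutritional stress stood apart at 5.30 to 5.80%. Of 11 genes of the osteoblast and chondroblast lineage 8 had a value, with Runx2 at 1736 to 5718, Sox9 at 4523 to 9248, Sparc at 4037 to 17211, Col1a1 at 1475 to 32561 and Col1a2 at 2100.5 to 40444 normalized counts, while Alpl, Bglap and Col2a1 did not exceed 43.9 in any library. Between nutritional stress and log phase Col1a1 and Col1a2 fell with NT, scrMo and DkkMo, by at least 1.35 on the log2 scale, Runx2 rose with all 3, and their part in the changes of the members was not tested. Of the leukocyte markers 3 of 7 had a value, Cd68 at 391 to 1551, Csf1r at 414 to 782 and Ptprc at 1.04 to 20.3, of which Cd68 rose under nutritional stress with NT and DkkMo, and Pecam1 was the only 1 of 4 endothelial markers, at 269 to 426. Dkk1 was not analysed here, so the level of the targeted transcript gives no check of the labels.

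Short stretches before a RefSeq start of several members hold the letters that NRF2 and its partner proteins recognise. The core of the antioxidant response element was searched as TGACNNNGC on both strands, in windows from 250 bases before to 50 bases after each start in RefSeq. A window was found for 35 of the 40 members, in 44 windows, and 10 of these 44 windows held the core (22.7%), each from a different gene, against 12.4% of 32851 windows of all genes. The 8 matches that lie before a RefSeq start are shown, on GRCm38.p6 and in the direction of the gene. The core is in capitals, written as its reverse complement where it lies on the other strand. A gene can have several RefSeq starts, and the stretches of Txnrd1, Mgst1 and G6pdx lie inside the gene as placed by GENCODE. The matches of Srxn1 and Pgd lie past the start and are named only. A match is a description of these letters and does not show binding.
Gclm (chr3:122245403-122245451, plus strand): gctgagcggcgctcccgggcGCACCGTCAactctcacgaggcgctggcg
Txnrd1 (chr10:82859094-82859142, plus strand): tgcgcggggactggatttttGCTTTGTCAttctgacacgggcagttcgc
Prdx1 (chr4:116685446-116685494, plus strand): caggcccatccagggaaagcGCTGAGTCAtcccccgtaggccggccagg
Mgst1 (chr6:138140451-138140499, plus strand): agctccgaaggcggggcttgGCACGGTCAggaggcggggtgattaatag
Sod1 (chr16:90220686-90220734, plus strand): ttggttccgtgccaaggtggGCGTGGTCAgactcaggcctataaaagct
G6pdx (chrX:74428909-74428957, minus strand): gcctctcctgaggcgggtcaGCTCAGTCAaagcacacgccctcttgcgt
Nfe2l2 (chr2:75704875-75704913, minus strand): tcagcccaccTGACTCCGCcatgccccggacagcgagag
Mt2 (chr8:94172519-94172567, plus strand): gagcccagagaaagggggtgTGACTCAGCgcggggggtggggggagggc

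The form TGACTCAGC, in which the core also holds the letters of an AP-1 site, was present in 149 of the 32851 windows (0.454%) and in 2 members, Prdx1 at 133 bases and Mt2 at 79 bases before the start. No window was available for Hmox1, Gclc, Gsr, Prdx6 and Gsta4. The neighbouring metallothionein genes Mt1 and Mt2 both fell under nutritional stress with scrMo and DkkMo, and both are classical targets of the metal-sensing factor MTF-1, so the stretch before each start is also shown, with the cores TGCACNC and TGCGCNC of the metal response element in capitals on either strand. The first core occurs in 12.6% and the second in 15.4% of all windows. Each stretch holds 150 bases and ends at a RefSeq start, so any cores further away or past that start are not shown.
Mt1 (chr8:94178939-94179088, plus strand): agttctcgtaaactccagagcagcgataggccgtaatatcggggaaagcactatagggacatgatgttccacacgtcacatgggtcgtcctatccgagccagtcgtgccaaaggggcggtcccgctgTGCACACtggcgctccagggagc
Mt2 (chr8:94172468-94172617, plus strand): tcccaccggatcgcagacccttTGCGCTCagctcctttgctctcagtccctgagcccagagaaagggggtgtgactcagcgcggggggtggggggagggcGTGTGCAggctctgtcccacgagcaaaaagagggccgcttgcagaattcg

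Levels are given as normalized counts, which are reads divided by the size factor of the library. Fold changes are differences of the deposited log2 values and were tested with limma over all 16562 genes with Benjamini-Hochberg adjustment. A gene was called DE (differentially expressed) where it changed over 1.5-fold with an adjusted p below 0.05. All changes below are log2 fold changes on the deposited scale, and where 3 are given in a row they are those with NT, scrMo and DkkMo. Per kilobase of exon, the group means of the ferritin heavy chain gene Fth1 were 35367 to 48257 normalized counts per kb and those of Hmox1 5711 to 42824, so that Hmox1 was far below Fth1 in the log phase NT cultures and level with it in the stressed DkkMo cultures. Mt2 was at 4990.1 to 26132 per kb, on reads that an overlapping gene shares, and Txn1 at 8115 to 13753. Gpx3, the secreted glutathione peroxidase of plasma, was lowest in every group, at 6.10 to 13.1 per kb. Cbr2 lay at 36.4 to 78.9 per kb in the stressed groups and at 436 to 2633 in log phase. Group means of Gpx3 were 11.1 to 23.8 normalized counts, so its values rest on few reads.

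**Figure D1:**
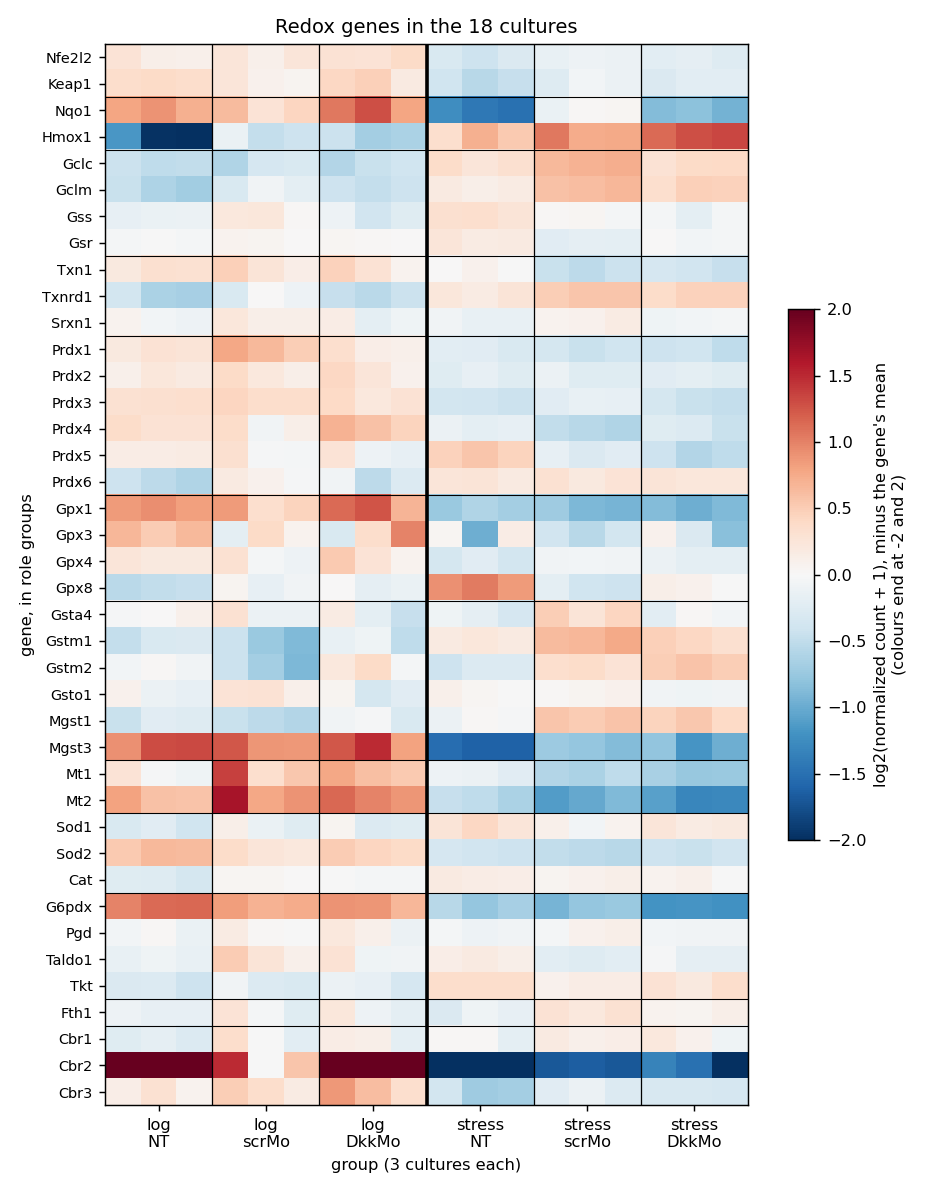
Each row is a gene, in role groups divided by thin lines, and each column 1 of the 18 cultures, with the colour giving log2(normalized count + 1) minus the mean of the gene over all cultures. The column blocks of log phase and nutritional stress differ most for Cbr2, Hmox1, Mgst3, G6pdx, Nqo1, Gpx1 and Mt2, while Pgd, Srxn1 and Cbr1 have nearly the same colour throughout.

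NRF2 and KEAP1 transcripts were both lower under nutritional stress than in log phase. Normalized counts of Nfe2l2 (chromosome 2, 75675513 to 75704641, minus strand) in log phase were 10218, 9219 and 9106 with NT, 10042, 9083 and 10081 with scrMo and 10322, 10221 and 11086 with DkkMo. Under nutritional stress they were 6876, 6354 and 6934 with NT, 7659.9, 7909.9 and 7828 with scrMo and 7356, 7529 and 7105 with DkkMo. All 9 stressed cultures lay below all 9 log phase cultures, and in log phase the NT and scrMo cultures overlapped while the DkkMo cultures lay just above both. The log2 fold changes of nutritional stress against log phase were -0.48 with NT, -0.31 with scrMo and -0.51 with DkkMo, with adjusted p values of 3.87e-07, 1.25e-04 and 2.27e-07, none past the 1.5-fold threshold. Keap1 (chromosome 9, 21229730 to 21239361, minus strand) was at 1671, 1717 and 1686 with NT, 1552, 1404 and 1373 with scrMo and 1762, 1836 and 1493 with DkkMo in log phase. In the stressed cultures its counts were 996, 892 and 956 with NT, 1097, 1273 and 1209 with scrMo and 1080.5, 1136 and 1135 with DkkMo. The stressed and log phase cultures did not overlap, and Keap1 was DE with NT alone, where it fell by 0.69 on the log2 scale (standard error 0.06, adjusted p = 1.27e-08). With each library centred on its median that fall was -0.53 and no longer past 1.5-fold. Keap1 shares 510 exon bases with the antisense gene Gm16754, which had 372 to 641 normalized counts. The sources used here do not say whether reads were counted by strand. Gm45774, opposite Mt2, had 100.1 to 100.7% of the Mt2 counts in the 18 libraries, so reads of that pair were counted for both strands alike.

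The comparison of nutritional stress with log phase had more DE members than any comparison of treatments. With NT, 8 members rose and 9 fell, where 8.22% and 9.90% of all genes tested were DE in these directions. With scrMo, 7 rose and 10 fell, against 4.38% and 6.28% of all genes, and with DkkMo 5 rose and 12 fell, against 6.24% and 10.2%. With another scaling the split with NT was 3 up and 12 down (quantile normalization) or 4 and 15 (reads outside the mitochondrial genome, chosen after seeing the data), and with DkkMo 8 and 8 (libraries centred on their medians). The median log2 fold changes of the 40 members were -0.10, -0.19 and -0.13, where those of all genes tested were -0.01, -0.01 and -0.01. At an adjusted p below 0.05 and any fold, 33, 29 and 29 members passed, against 65.6%, 58.8% and 65.6% of all genes. The 3 comparisons share no library, and 4 members rose in all 3 (Hmox1, Gclc, Gclm and Txnrd1), 6 fell in all 3 (Cbr2, Mt2, G6pdx, Mgst3, Gpx1 and Sod2), 24 were DE in at least 1, against 2.09%, 3.90% and 25.3% of all genes by the same rules, and no member rose in 1 and fell in another. Over all comparisons, interactions included, 14 members were DE in none. The share of all genes by that rule is not given here, so the count cannot be set against it. Calls close to the fold threshold depended on the scaling or on single cultures. Under at least 1 alternative those of Keap1, Gclm, Txnrd1, Prdx3, Prdx6, Sod1 and Tkt with NT, of Txnrd1 and Prdx4 with scrMo, and of Txn1, Prdx1, Prdx3, Gstm1 and Sod2 with DkkMo were lost. The stressed scrMo cultures were those with the higher mitochondrial share, and its part in the changes with scrMo was not tested. Fewer cells of a kind and less RNA per cell cannot be told apart in these bulk libraries.

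**Figure D2:**
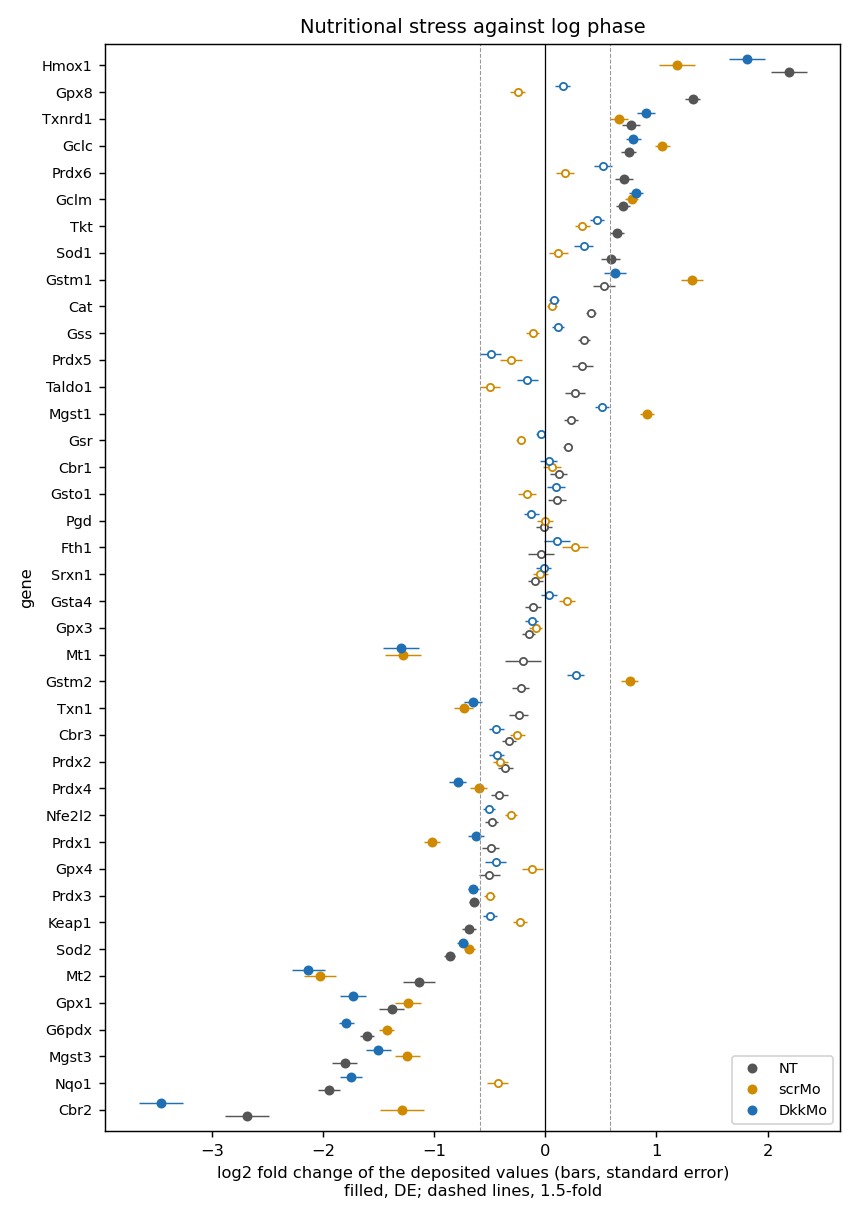
Log2 fold change of nutritional stress against log phase on the horizontal axis for the 40 members (vertical axis, ordered by the change with NT), with standard errors as bars, 1 colour per treatment and filled points for DE genes. Hmox1, Gclc, Gclm and Txnrd1 lie to the right of the 1.5-fold line and Cbr2, Mgst3, G6pdx, Gpx1, Mt2 and Sod2 to the left under every treatment, whereas Nqo1, Gpx8 and Gstm2 differ between treatments.

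Hmox1, Gclc, Gclm and Txnrd1 are textbook targets of NRF2. Hmox1 encodes heme oxygenase 1, which breaks down heme to biliverdin, iron and carbon monoxide (chromosome 8, 75093621 to 75100589, plus strand). Its normalized counts in log phase were 14058, 8010.4 and 7932 with NT, 28609, 22526 and 23617 with scrMo and 23365, 19707 and 20317 with DkkMo. Under nutritional stress they were 39675, 51508 and 44988 with NT, 65659.9, 52739.9 and 53066 with scrMo and 68973, 76851 and 79131 with DkkMo. Every stressed culture was above every log phase culture. In log phase the NT cultures were lowest, 1 of them well above the other 2, and under nutritional stress the DkkMo cultures were highest, above all scrMo cultures. Hmox1 rose under nutritional stress by 2.19 (standard error 0.16, adjusted p = 5.86e-10) with NT, 1.19 (standard error 0.16, adjusted p = 4.16e-06) with scrMo and 1.81 (standard error 0.16, adjusted p = 9.99e-09) with DkkMo on the log2 scale. Without the first log phase NT culture the rise with NT was 2.46.

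Glutathione is made in a first step by glutamate-cysteine ligase and a second by glutathione synthetase. Gclc, the catalytic subunit of the ligase (chromosome 9, 77754535 to 77794485, plus strand), had 4294, 4079 and 4119 normalized counts with NT, 3820.4, 4611 and 4717 with scrMo and 3857, 4280.4 and 4405 with DkkMo in log phase. Under nutritional stress it had 7486, 6827 and 7277 with NT, 9111, 9390.0 and 9616 with scrMo and 7095, 7566 and 7641 with DkkMo. All stressed cultures were above all log phase cultures, and the stressed scrMo cultures were highest. Gclc rose by 0.75 with NT, 1.05 with scrMo and 0.79 with DkkMo (adjusted p = 8.36e-09, 1.79e-10 and 4.57e-09), and Gclm, the regulatory subunit, by 0.70, 0.78 and 0.82. The genes of the later steps were not DE. Gss, glutathione synthetase, had log2 fold changes of 0.35, -0.12 and 0.11, and Gsr, which reduces oxidised glutathione with NADPH, 0.20, -0.22 and -0.04. Gclm shares 296 exon bases with Gm17494, which had 216 to 336 normalized counts in log phase and 526 to 885 under nutritional stress. Group means ranged from 3747 to 8691 for Gclm, 700.3 to 1019.5 for Gss and 2455 to 3216 for Gsr.

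In the thioredoxin system, the reductase rose under every treatment while its substrate fell with both morpholinos. Txnrd1, the cytosolic thioredoxin reductase, rose by 0.77, 0.66 and 0.90 with NT, scrMo and DkkMo, with group means from 32069 to 67914. Txn1, thioredoxin itself, fell, at -0.74 with scrMo and -0.65 with DkkMo, and had -0.24 with NT. Srxn1, sulfiredoxin, which repairs overoxidised peroxiredoxins and is also a known NRF2 target, was DE in no comparison, with group means of 12680.1 to 15306 and changes of -0.09 to -0.01. The rise of Txnrd1 with NT was 0.34 and not DE after quantile normalization.

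Of the 6 peroxiredoxins, thiol enzymes that reduce hydrogen peroxide, 1 rose and 3 fell in at least 1 comparison of nutritional stress with log phase. Of all genes tested 25.3% were DE in at least 1 of the 3 comparisons. The cytosolic Prdx1 fell, at -1.02 with scrMo and -0.63 with DkkMo and had -0.49 with NT, the mitochondrial Prdx3 fell, at -0.64 with NT and -0.65 with DkkMo, and Prdx4, of the endoplasmic reticulum, fell, at -0.60 with scrMo and -0.79 with DkkMo. Prdx6, which uses glutathione, rose by 0.71 with NT. Of these calls, only those of Prdx1 with scrMo and Prdx4 with DkkMo held under every alternative. Prdx2 was DE in none, at -0.36, -0.40 and -0.44, and neither was Prdx5, at 0.33, -0.31 and -0.49.

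Gpx1, the main cytosolic glutathione peroxidase (chromosome 9, 108338903 to 108340343, plus strand), was lower in every stressed culture. Its normalized counts in log phase were 4330.1, 4585 and 4247 with NT, 4369.8, 3033 and 3283 with scrMo and 5308, 5745 and 3851 with DkkMo. Under nutritional stress they were 1446, 1591 and 1497 with NT, 1465, 1287 and 1267 with scrMo and 1319.9, 1229 and 1306 with DkkMo. The stressed cultures of the 3 treatments lay close together and far below all log phase cultures. Gpx1 fell, at -1.38, -1.24 and -1.73 on the log2 scale with NT, scrMo and DkkMo (adjusted p = 3.04e-09, 3.08e-08 and 1.57e-10). Gpx4, which reduces lipid peroxides, had -0.50, -0.12 and -0.45, and Gpx3, the plasma enzyme, had -0.15, -0.09 and -0.12, none of them DE. The deposited scale compresses low counts, and on log2(normalized count + 1) Gpx3 had -0.87 with NT and was DE there.

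Gpx8, a peroxidase of the endoplasmic reticulum membrane (chromosome 13, 113042753 to 113046410, minus strand), followed another pattern. Its normalized counts in log phase were 2031, 2106 and 2139.8 with NT, 3061, 2639 and 2815 with scrMo and 2958, 2610.0 and 2682 with DkkMo. Under nutritional stress they were 5586, 6099 and 5330.4 with NT, 2587, 2231 and 2215 with scrMo and 3211, 3134 and 2939.9 with DkkMo. The stressed NT cultures stood above the other 15, while the log phase NT cultures were the lowest of all. Gpx8 rose under nutritional stress with NT by 1.33 (standard error 0.07, adjusted p = 2.35e-12), and its changes with scrMo and DkkMo were -0.25 and 0.16.

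Glutathione transferases conjugate glutathione to electrophiles or, in the membrane-bound Mgst enzymes, also reduce lipid peroxides. Gstm1, of the mu class (chromosome 3, 108012255 to 108017973, minus strand), had 5214, 5892 and 5908 normalized counts with NT, 5399, 4335 and 3932 with scrMo and 6561, 6844 and 5101 with DkkMo in log phase. Under nutritional stress it had 8192, 8481 and 8227 with NT, 11308, 11492 and 12291 with scrMo and 10113, 9707 and 9101 with DkkMo. All stressed cultures were above all log phase cultures, and scrMo had the lowest level in log phase and the highest under nutritional stress. Gstm1 rose by 1.32 with scrMo and 0.63 with DkkMo and had 0.53 with NT (adjusted p = 1.72e-09, 1.48e-05 and 9.93e-05). Without the third log phase DkkMo culture, the rise with DkkMo was 0.51 and under 1.5-fold. Mgst1 rose by 0.91 with scrMo and had 0.23 with NT and 0.51 with DkkMo.

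Mgst3 (chromosome 1, 167371966 to 167393841, minus strand) went the other way. It had 969, 1270.3 and 1279 normalized counts with NT, 1214, 944 and 939 with scrMo and 1221, 1454 and 902 with DkkMo in log phase, and 179, 167 and 167 with NT, 309, 301 and 281 with scrMo and 296, 227 and 261 with DkkMo under nutritional stress. The stressed NT cultures were lowest and no stressed culture reached a log phase culture. Mgst3 fell, at -1.81 with NT, -1.24 with scrMo and -1.51 with DkkMo (adjusted p = 4.92e-11, 2.19e-08 and 8.36e-10). In mean normalized counts the fall with NT was 6.86-fold, larger than the compressed scale shows. Gsta4, which conjugates lipid aldehydes, and Gsto1, of the omega class, were DE in no comparison, with group means of 168 to 255 and 11479.7 to 15052. The deposited scale compresses Gsta4 too. In mean normalized counts it was 1.51-fold higher with scrMo than with NT under nutritional stress, and those cultures did not overlap.

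Metallothioneins are small cysteine-rich proteins that bind zinc and copper and scavenge oxidants. Mt1 (chromosome 8, 94179082 to 94180327, plus strand) had 10132, 8219 and 7942 normalized counts with NT, 21645, 10620.0 and 12242 with scrMo and 14263, 12704 and 12092 with DkkMo in log phase, and 7799, 7720.1 and 7175 with NT, 5603, 5435 and 5903 with scrMo and 5374, 4951 and 5011 with DkkMo under nutritional stress. Mt2 (chromosome 8, 94172664 to 94173568, plus strand) had 11957, 10265 and 10129 with NT, 21604, 11762 and 12730.5 with scrMo and 15246, 13647 and 12649 with DkkMo in log phase, and 4956, 4839 and 4411 with NT, 3164, 3386 and 3706 with scrMo and 3240.5, 2766 and 2796 with DkkMo under nutritional stress. For both genes all stressed cultures lay below all log phase cultures, and the first log phase scrMo culture was far above every other. Mt2 fell, at -1.14 with NT, -2.03 with scrMo and -2.13 with DkkMo (adjusted p = 1.38e-06, 1.22e-09 and 2.81e-10). Mt1 fell, at -1.28 with scrMo and -1.30 with DkkMo and had -0.20 with NT (adjusted p = 0.292). Mt2 shares 432 exon bases with Gm45774 on the opposite strand, whose normalized counts were 100.1 to 100.7% of those of Mt2 in the 18 libraries, so the reads of the 2 genes cannot be told apart.

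NADPH comes from the oxidative branch of the pentose phosphate pathway, whose first and rate-limiting enzyme is glucose-6-phosphate dehydrogenase, encoded by G6pdx (chromosome X, 74409483 to 74429194, minus strand). G6pdx had 5574, 6161 and 6225 normalized counts with NT, 5029, 4524 and 4709.9 with scrMo and 5214, 5170.3 and 4448 with DkkMo in log phase. Under nutritional stress it had 1914, 1648 and 1777 with NT, 1467, 1635 and 1675 with scrMo and 1229, 1243 and 1214 with DkkMo. Every stressed culture was far below every log phase culture, and under nutritional stress the DkkMo cultures were lowest. G6pdx fell, at -1.61 with NT, -1.43 with scrMo and -1.79 with DkkMo (standard error 0.07 each, adjusted p = 2.10e-13, 3.26e-12 and 1.21e-13). It shares 418 exon bases with Ikbkg on the other strand, whose group means were 3897 to 4696 in log phase and 7983 to 11115 under nutritional stress, the opposite order to G6pdx. The next oxidative enzyme, Pgd (6-phosphogluconate dehydrogenase), was not DE, with group means of 9673 to 10674 and a change of -0.13 with DkkMo and smaller ones with NT and scrMo. In the non-oxidative branch, Tkt, transketolase, rose by 0.65 with NT and had 0.33 and 0.46 with scrMo and DkkMo, and Taldo1, transaldolase, had 0.27, -0.50 and -0.16.

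Superoxide dismutases and catalase remove superoxide and hydrogen peroxide directly. Sod2, the mitochondrial superoxide dismutase, fell, at -0.86, -0.69 and -0.74 with NT, scrMo and DkkMo, with group means from 1301 to 2835. Sod1, the cytosolic enzyme, rose by 0.59 with NT, just past the fold threshold, and lost this call without the third log phase NT culture, at 0.55, or without the second stressed NT culture, at 0.53. Cat, catalase of the peroxisome, had 0.41, 0.06 and 0.08, and Fth1 -0.04, 0.27 and 0.10, and neither was DE in any comparison.

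Carbonyl reductases reduce aldehydes, ketones and quinones with NADPH, and Cbr2 showed the widest range of all members. Cbr2 (chromosome 11, 120729489 to 120732114, minus strand) had 1461, 1391 and 1311 normalized counts with NT, 925, 327 and 482 with scrMo and 3133, 4878 and 2472 with DkkMo in log phase. Under nutritional stress it had 50.7, 50.8 and 43.6 with NT, 101, 104 and 101 with scrMo and 129, 115 and 69.9 with DkkMo. The 3 log phase groups did not overlap, with DkkMo highest and scrMo lowest, and all stressed cultures were lower still. The mean of the log phase DkkMo cultures was 72.3 times that of the stressed NT cultures. Cbr2 fell under nutritional stress by 2.69 (standard error 0.20, adjusted p = 5.38e-10) with NT, by 1.29 (standard error 0.20, adjusted p = 1.67e-05) with scrMo and by 3.46 (standard error 0.20, adjusted p = 2.16e-11) with DkkMo on the log2 scale. The deposited scale compresses changes at low counts, and in mean normalized counts these falls were 28.7-fold, 5.68-fold and 33.4-fold. The related Cbr1, with group means of 375 to 487, and Cbr3, with 99.8 to 230.5, were DE in no comparison, although on log2(normalized count + 1) Cbr3 was -0.76 with NT and DE there.

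Nqo1, NAD(P)H quinone dehydrogenase 1 (chromosome 8, 107388225 to 107403206, minus strand), is also a textbook target of NRF2. Its normalized counts in log phase were 4993, 5373 and 4719 with NT, 4483, 3483 and 3885 with scrMo and 6024, 7013 and 4963 with DkkMo. Under nutritional stress they were 1218, 1069 and 1019 with NT, 2643, 2945 and 2955 with scrMo and 1575, 1639 and 1505 with DkkMo. All stressed cultures lay below all log phase cultures, and under nutritional stress the 3 treatments did not overlap, with NT lowest and scrMo highest. Nqo1 fell by 1.95 (standard error 0.10, adjusted p = 2.38e-12) with NT and by 1.75 (standard error 0.10, adjusted p = 1.51e-11) with DkkMo on the log2 scale, and had -0.43 (standard error 0.10, adjusted p = 8.74e-04) with scrMo, which was not past 1.5-fold. Hmox1, Gclc, Gclm and Txnrd1 thus rose in the cultures in which Nqo1 was lower.

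**Figure D3:**
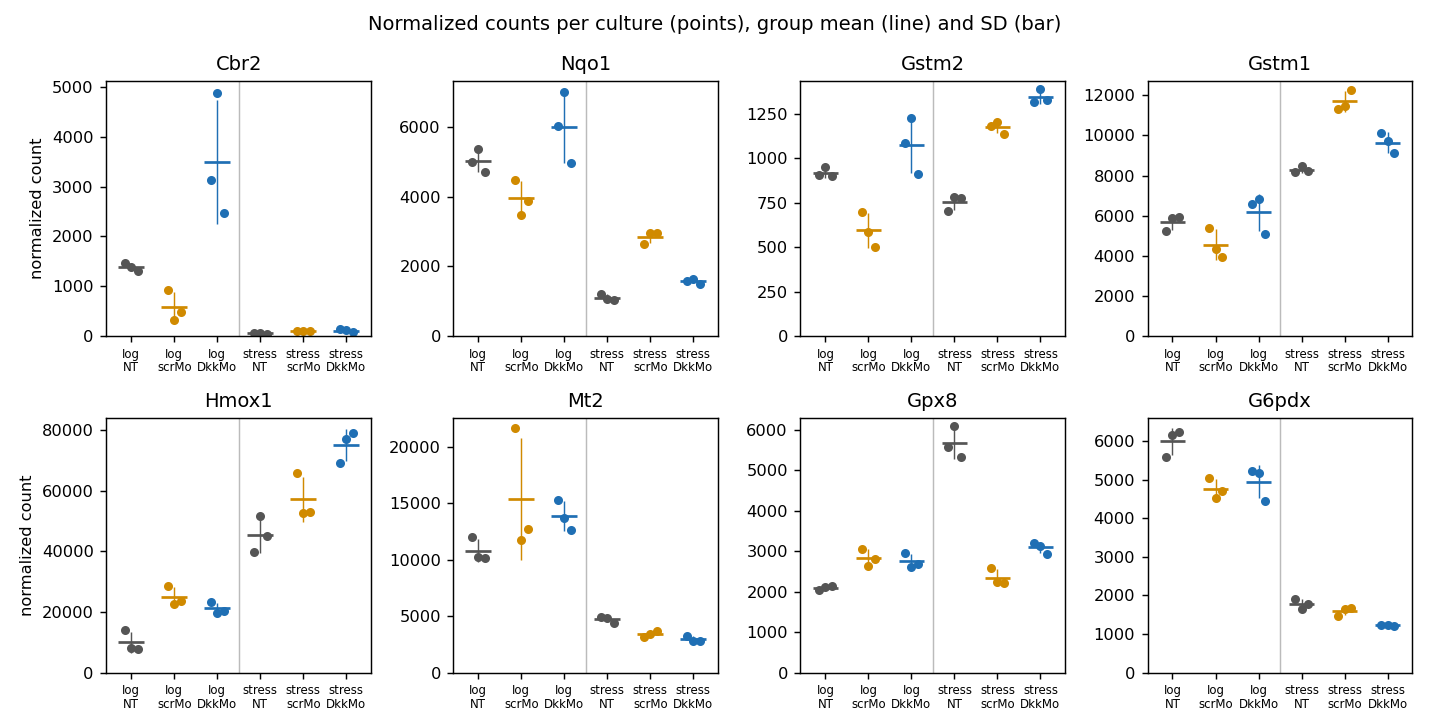
Normalized counts (linear vertical axes from 0) of 8 members in the 6 groups, with 1 point per culture, the group mean as a horizontal line and the SD as a vertical bar. Cbr2 was highest with DkkMo in log phase and lay at 43.6 to 129 under nutritional stress, Nqo1 changed its order of treatments between the 2 conditions, and Gpx8 was highest in the stressed NT cultures.

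The comparison of DkkMo with scrMo sets cultures given the morpholino against Dkk-1 beside those given its scrambled control. The level of Dkk-1 was not analysed here, and scrMo itself differed from NT, as given further below. In log phase 2 members rose and 0 fell in limma, against 1.66% and 0.308% of all genes tested, and 15 had an adjusted p below 0.05 at any fold, against 23.5% of all genes. Cbr2 rose by 2.18 (standard error 0.20, adjusted p = 6.58e-07) on the log2 scale, from a mean of 578 ± 309.9 (SD, n = 3) in the scrMo cultures to 3494 ± 1243 (SD, n = 3) in the DkkMo cultures. Leaving out single cultures gave 1.93 to 2.47. Gstm2, another mu class transferase (chromosome 3, 107981702 to 107986453, minus strand), had 908, 953 and 898 normalized counts with NT, 699, 586 and 501 with scrMo and 1086, 1227 and 913 with DkkMo in log phase. All DkkMo cultures were above all scrMo cultures, and the NT cultures lay between them, with overlap on the DkkMo side. Gstm2 rose by 0.65 (standard error 0.08, adjusted p = 1.24e-05), and this was 0.58 with each library centred on its median, 0.56 without the third scrMo culture and 0.57 without the second DkkMo culture, all under the fold threshold. Nqo1 had 0.56 (adjusted p = 3.41e-04), just under the threshold on the deposited scale, and Gpx1 had 0.45. In mean normalized counts Nqo1 was 1.52-fold higher with DkkMo than with scrMo. On log2(normalized count + 1), with limma voom or with scaling to reads outside the mitochondrial genome, 3 members rose in place of 2. In the other direction Prdx1 had -0.44, Gsto1 -0.39, Prdx6 -0.36 and Txnrd1 -0.34. Nqo1 and Gpx1 were both DE without the first scrMo culture, at 0.65 and 0.59, and without the third DkkMo culture, at 0.69 and 0.61.

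Under nutritional stress 0 members rose and 1 fell between DkkMo and scrMo in limma, against 0.513% and 0.489% of all genes, and 8 had an adjusted p below 0.05, against 20.9%. The member was Nqo1, which fell by 0.76 (standard error 0.10, adjusted p = 1.98e-05). Its mean was 2848 ± 177 (SD, n = 3) in the scrMo cultures and 1573 ± 66.8 (SD, n = 3) in the DkkMo cultures. The stressed NT cultures had a mean of 1102 ± 103 (SD, n = 3), so the DkkMo cultures lay below scrMo but above NT. Cbr2, so different in log phase, had 0.01 (standard error 0.20, adjusted p = 0.988), at means of 105 and 102 normalized counts. Gstm2 was at 702, 781 and 776 with NT, 1184, 1207 and 1139 with scrMo and 1317, 1391 and 1328 with DkkMo. These 3 groups did not overlap, with DkkMo highest, and the change against scrMo was 0.16 (adjusted p = 0.164). Among the other members with an adjusted p below 0.05, Gpx8 had 0.37, Gclc -0.32 and G6pdx -0.31. The scrMo cultures under nutritional stress are those with 5.30 to 5.80% of reads on the mitochondrial genome. With each library scaled to its reads outside the mitochondrial genome, an alternative chosen after seeing the data, Nqo1 was again the 1 DE member.

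**Figure D4:**
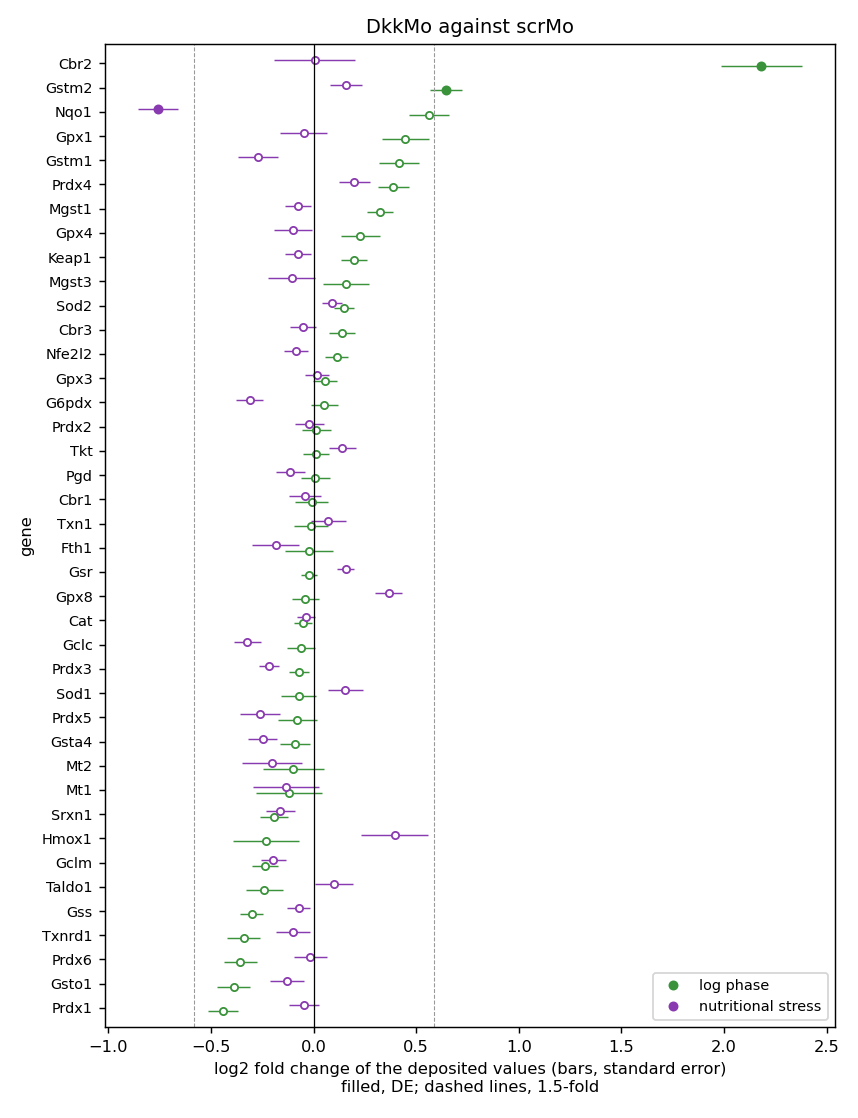
Log2 fold change of DkkMo against scrMo on the horizontal axis for the 40 members (vertical axis, ordered by the log phase change), in log phase and under nutritional stress, with standard errors as bars and filled points for DE genes. Cbr2 and Gstm2 in log phase and Nqo1 under nutritional stress lie past the dashed 1.5-fold lines as filled points, and most other members lie between the lines.

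The effect of DkkMo against scrMo differed between the 2 conditions, past both thresholds of the interaction in limma, for 0 members upward and 3 downward, against 0.869% and 2.83% of all genes. At an adjusted p below 0.05 alone 13 members passed, against 22.2%. Nqo1 was higher with DkkMo than scrMo in log phase and lower under nutritional stress, a difference of -1.32 (standard error 0.14, adjusted p = 2.95e-06) on the log2 scale. For Cbr2 the difference was -2.17 (standard error 0.28, adjusted p = 2.64e-05) and for Gstm1 -0.69 (standard error 0.14, adjusted p = 0.00159), where Gstm1 had 0.42 in the log phase comparison and -0.27 in the stressed one.

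The control morpholino, which the paper describes as designed with mismatches, was itself compared with NT. The comparison shows how these genes stood in cultures that received it. In log phase 2 members rose and 1 fell between scrMo and NT, against 0.592% and 1.85% of all genes, and on log2(normalized count + 1) 2 and 2. At an adjusted p below 0.05 and any fold 20 members passed, against 26.4% of all genes. Hmox1 rose by 1.34 (standard error 0.16, adjusted p = 6.96e-06), with means of 24917 ± 3244 (SD, n = 3) with scrMo and 10000.0 ± 3514 (SD, n = 3) with NT. Mt1 rose by 0.68 (standard error 0.16, adjusted p = 0.00406), but without the first scrMo culture the value was 0.38 and not DE, and fitted on the groups compared alone its adjusted p was 0.0601. Cbr2 fell by 1.05 (standard error 0.20, adjusted p = 6.20e-04). This comparison shares the scrMo cultures with that of DkkMo against scrMo, so a low scrMo level enters both. Against NT, which shares the NT cultures, DkkMo had 1.13 for Cbr2 (adjusted p = 9.80e-04) and 1.11 for Hmox1 (adjusted p = 1.97e-04), the 2 members that rose, with 0 that fell in limma, against 0.513% and 0.314% of all genes. Of all members, 7 had an adjusted p below 0.05 in that comparison, against 9.81% of all genes.

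Under nutritional stress 1 member rose and 2 fell between scrMo and NT, against 1.90% and 2.54% of all genes, and 26 passed the adjusted p at any fold, against 46.8%. Nqo1 rose by 1.18 (standard error 0.10, adjusted p = 2.07e-08) and Gpx8 fell by 1.18 (standard error 0.07, adjusted p = 1.49e-10). Prdx5, a peroxiredoxin of mitochondria and peroxisomes (chromosome 19, 6906697 to 6910106, minus strand), had 12609, 12582 and 12812 normalized counts with NT, 14214, 11256 and 11081 with scrMo and 13855, 10607 and 10203 with DkkMo in log phase. Under nutritional stress it had 15718, 16843 and 15524 with NT, 10168, 9307 and 9717 with scrMo and 8558, 7607 and 8044 with DkkMo. There the 3 treatments did not overlap, with NT highest and DkkMo lowest, whereas in log phase they overlapped. With quantile normalization 3 members rose and 1 fell, and with limma voom on the recovered reads 3 and 2. Prdx5 fell by 0.70 (standard error 0.10, adjusted p = 9.44e-06), and was -0.47 after quantile normalization and -0.53 with scaling to reads outside the mitochondrial genome, both under the fold threshold. The exons of Prdx5 share 409 bases with Trmt112 on the other strand, at group means of 2379 to 2804. With the latter scaling, under which the median of all genes was 0.18, 10 members were DE in this comparison in place of 3, 9 of them higher, and the part of the mitochondrial reads in these values was not tested. Against NT, DkkMo under nutritional stress had 2 members that rose, Hmox1 with 0.73 and Gstm2 with 0.67, and 3 that fell, Prdx5 with -0.97, Gpx8 with -0.82 and Mt2 with -0.64 (-0.51 after quantile normalization and not DE), against 1.12% and 1.54% of all genes, or 6 and 2 with scaling to reads outside the mitochondrial genome. The adjusted p alone was passed by 18 members, against 41.7% of all genes.

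**Figure D5:**
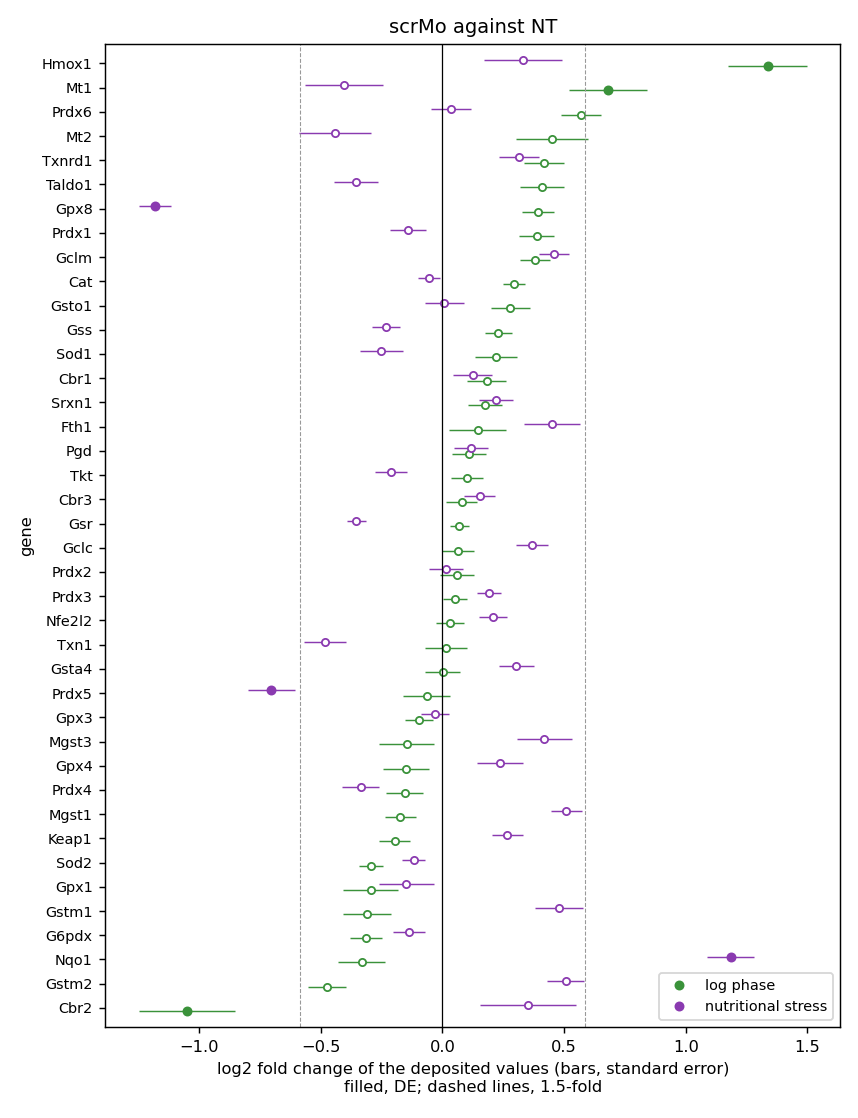
Log2 fold change of scrMo against NT on the horizontal axis for the 40 members (vertical axis, ordered by the log phase change), in log phase and under nutritional stress, with standard errors as bars and filled points for DE genes. Hmox1, Mt1 and Cbr2 in log phase and Nqo1, Gpx8 and Prdx5 under nutritional stress are the filled points.

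The change of scrMo against NT differed between the 2 conditions for 5 members upward and 6 downward, against 5.55% and 5.37% of all genes, or 9 and 4 with scaling to reads outside the mitochondrial genome. Upward were Nqo1 with 1.52, Cbr2 with 1.40 (2.46 on log2(normalized count + 1)), Gstm2 with 0.98, Gstm1 with 0.79 and Mgst1 with 0.68, so that 3 of the 6 transferases tested were among them. By the adjusted p alone 25 members passed, against 46.0% of all genes. Downward were Gpx8 with -1.57, Mt1 with -1.08, Hmox1 with -1.01, Mt2 with -0.89, Taldo1 with -0.76 and Prdx5 with -0.64, of which Taldo1 was -0.54 and Prdx5 -0.37 after quantile normalization and not DE. The log phase and stressed values themselves were -0.47 and 0.51 for Gstm2, and for Gstm1 -0.31 and 0.48. In mean normalized counts Gstm2 was 1.54-fold lower with scrMo than with NT in log phase and 1.56-fold higher under nutritional stress. A transcribed pseudogene of Gstm2, Gstm2-ps1, had 178 to 653 normalized counts, and reads that fit both were not separable here.

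Further genes of the same pathways were taken from 6 lists of 106 genes, of which 90 had a value. Between DkkMo and scrMo in log phase, 3 of 13 genes of glutathione metabolism fell and 0 rose, where 0.308% of all genes fell and 1.66% rose. Among them Cth, which makes cysteine from cystathionine, fell by 1.07 (adjusted p = 6.50e-07) there, and by 0.85 (adjusted p = 4.64e-06) in the stressed cultures. Its level went from 1259, 1478 and 1529.5 normalized counts with scrMo to 646, 416 and 578 with DkkMo in log phase. Against NT it fell, at -0.60 and -0.64. Chac1, which breaks down glutathione, fell by 0.83 in log phase, where its means were 2700.5 with NT, 5415 with scrMo and 2948 with DkkMo. Of 18 further NRF2 targets 2 rose and 0 fell in log phase, Ephx1, a microsomal epoxide hydrolase, by 0.75 and Aox1, an aldehyde oxidase, by 0.66, against the same shares of all genes. Log phase means of Aox1 were 2101 with NT, 1228 with scrMo and 2107 with DkkMo, so that scrMo lay below the other 2, which were level. Under nutritional stress Aox1 rose by 0.77 against scrMo and 0.76 against NT. Of 20 thioredoxin, glutaredoxin and selenoprotein genes, Txnip, the inhibitor of thioredoxin, rose by 2.78 in log phase, from 280.3, 138 and 148 with scrMo to 2733, 3086 and 2148 with DkkMo, and Selenop, a selenium carrier, by 1.29. The log phase NT cultures had 1343, 353 and 225 for Txnip, and both genes fell in scrMo against NT, by 0.87 for Txnip and by 1.03 for Selenop. Against NT, DkkMo had 1.91 for Txnip (adjusted p = 1.90e-04) and 0.26 for Selenop (adjusted p = 0.133), whose mean was 613 with NT, 188 with scrMo and 795 with DkkMo. Under nutritional stress Txnrd3 fell by 0.84. In the lists of NRF2 partners (9 with a value), other glutathione transferases (11) and NADPH and redox enzymes (19), 0 genes were DE between DkkMo and scrMo in either condition.

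Between nutritional stress and log phase, the list of thioredoxins, glutaredoxins and selenoproteins had 0 genes up and 5 down of 20 with NT, 1 and 3 with scrMo and 0 and 6 with DkkMo. Of all genes 8.22% rose and 9.90% fell with NT, 4.38% and 6.28% with scrMo and 6.24% and 10.2% with DkkMo, and these shares hold beside each list here. Glrx, glutaredoxin, fell, at -1.30, -1.17 and -1.31, and Selenow, a small selenoprotein, at -1.47, -0.91 and -1.36. Among the NRF2 targets 2 rose and 2 fell with NT, 3 and 4 with scrMo and 3 and 3 with DkkMo, and Trim16, a ubiquitin ligase, fell, at -0.77, -0.89 and -0.87. Of the other glutathione transferases 0 rose and 4, 1 and 2 of 11 fell, and Ptges, a prostaglandin E synthase of the same family as the Mgst enzymes, fell in all 3 comparisons, at -0.90, -1.06 and -0.85. In the NADPH and redox list 2 rose and 4 fell with NT, 1 and 2 with scrMo and 1 and 5 with DkkMo. Slc40a1 of that list, the iron exporter ferroportin, rose by 0.92 with NT and 1.14 with DkkMo, and most with scrMo (adjusted p = 6.54e-14). In glutathione metabolism 0 rose and 1 of 13 fell in each comparison. Of the 9 NRF2 partners 2 rose and 1 fell with NT, 0 and 0 with scrMo in limma, and 1 and 1 with DkkMo.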

How the data were processed

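RNA was sequenced in 18 libraries of cultured cells, 3 in each of 6 groups taken from the sample labels. The 16 tumours of the 34 samples were not used here. The authors' processing notes name HISAT2 2.1.0, SAMtools 1.9, StringTie and featureCounts of Subread 2.0.0 with GRCm38, and the authors deposited log2 values after the variance stabilising transformation of DESeq2. Inverting that transformation returned whole reads, within 0.01, for 100% of values under 1000 reads in all 18 libraries, and dividing these reads by the size factor of the library gave normalized counts. The deposited scale flattens changes of genes with few reads, and its lowest value, 7.19806, stands for no reads.

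The deposited log2 values were fitted with limma 3.58.1 in R 4.3.3, with 1 mean per group over all 18 libraries and a trend in the variance, for genes above the lowest value in at least 3 libraries. A set of 14 genes spanning more than 6 within a group was left out of the fit, which left 16562. P values were adjusted by Benjamini-Hochberg over all of these. The fit was tested on simulated data. Interactions compared the change of a treatment between conditions. Alternatives were other scalings, filters, models and samples left out. Python 3.11.15, NumPy 2.4.6, pandas 2.3.3 and Matplotlib 3.10.9 were used, and gene positions were those of GENCODE M21.

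The members and pathway lists were chosen with earlier results of these data known. Values per culture are given for members DE between DkkMo and scrMo, for the 10 with the largest mean change among those DE in at least 2 of the 3 comparisons of nutritional stress with log phase, for up to 6 further members DE between scrMo and NT, and for Nfe2l2 and Keap1.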

Additional observations from a re-analysis of the deposited data

Results flagged for a closer look

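Of the members, 3 had a different effect of DkkMo against scrMo in the stressed and the log phase cultures, tested as an interaction in limma with Benjamini-Hochberg adjustment over all genes. The difference, stressed minus log phase, was -2.17 for Cbr2, -1.32 for Nqo1 and -0.69 for Gstm1 on the log2 scale, with standard errors of 0.28, 0.14 and 0.14. Cbr2 lay between -2.46 and -1.92 when single cultures were left out.

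For scrMo against NT the same interaction differed for 11 members. It was positive for Nqo1 (1.52), Cbr2 (1.40), Gstm2 (0.98), Gstm1 (0.79) and Mgst1 (0.68), and negative for Gpx8 (-1.57), Mt1 (-1.08), Hmox1 (-1.01), Mt2 (-0.89), Taldo1 (-0.76) and Prdx5 (-0.64). The interactions share the scrMo cultures. The stressed scrMo cultures also had the highest share of mitochondrial reads, at 5.30 to 5.80%, and its part in these differences was not tested.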

How the results depend on the processing

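Over all alternatives 8229 values of members were recomputed. Of these 7951 kept their side of the thresholds, 238 passed them newly and 40 no longer passed. The alternatives include the fit with no fold threshold, which can only add calls, so part of the 238 follows from that setting alone. No called value changed sign, while any uncalled values that changed sign are counted among the 7951. Of 81 calls of members, 20 were lost under at least 1 alternative. With no fold threshold the number of members called was, in log phase and then in the stressed cultures, 15 and 8 for DkkMo against scrMo, 20 and 26 for scrMo against NT, 7 and 18 for DkkMo against NT, 33, 29 and 29 for nutritional stress against log phase with NT, scrMo and DkkMo, and 13 and 25 for the interactions of DkkMo against scrMo and of scrMo against NT, which follows from dropping that threshold. With libraries centred on their medians 1 member was called for DkkMo against scrMo in log phase. There 3 were called on log2(normalized count + 1), with limma voom or with scaling to reads outside the mitochondrial genome, where the fit reported gave 2. For scrMo against NT under nutritional stress 3 members became 7 on log2(normalized count + 1), 5 with limma voom and 10 with scaling to reads outside the mitochondrial genome, which gave 8 in place of 5 for DkkMo against NT. The cause was not tested. On log2(normalized count + 1), 4 of the 81 calls were over 1.5 times larger, 3 of them of Cbr2 and 1 of Mgst3. With scaling to reads outside the mitochondrial genome the median of all genes was -0.20 for nutritional stress against log phase with NT. With centring on the median it was 0.14, where the fit reported gave -0.01.

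Leaving out single cultures gave 1 to 4 members for DkkMo against scrMo in log phase (1 without the third scrMo or the second DkkMo culture, 4 without the first scrMo or the third DkkMo culture) and 1 under nutritional stress. It gave 2 to 4 and 3 for scrMo against NT, 2 to 3 and 5 for DkkMo against NT, 16 to 17, 15 to 18 and 16 to 17 for nutritional stress against log phase with NT, scrMo and DkkMo, and 3 to 4 and 11 to 13 for the interactions.

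With the replicate block, 2 members were called for DkkMo against scrMo in log phase, 1 under nutritional stress and 4 for their interaction, where the fit without it gave 3. It gave 3 and 2 for scrMo and DkkMo against NT in log phase, and 17 and 17 for nutritional stress against log phase with scrMo and DkkMo. Residuals of log phase DkkMo and scrMo cultures with the same number correlated at 0.62 for number 1, -0.05 for number 2 and 0.57 for number 3. The labels do not say whether the numbers mark pairs. The fit reported has no block, and what the numbers 1 and 3 share was not tested. The block could not be fitted for comparisons with the stressed NT cultures.

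Genes with few reads, such as Gpx3 and Cbr3, are limited by depth on the deposited scale.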
